A study of Arabidopsis thaliana with 4 samples.

Results

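The 40 genes described here carry out or control DNA replication and S phase in Arabidopsis thaliana. They were taken by gene identifier, with no threshold on a measured value, from tables of 27880 genes and gene groups. The genes were chosen with earlier results of these data known. They comprise 11 genes of origin recognition and licensing, 7 of the replicative helicase, 4 catalytic polymerase subunits, 4 genes of the sliding clamp and its loader, a flap endonuclease and a ligase, 3 single-strand binding subunits, 4 genes of nucleotide supply, 2 of chromatin assembly and 3 of the E2F and retinoblastoma switch. Expression was measured by RNA-seq in whole globular embryos of the se-1 (serrate-1) genotype and of wild type. Both genotypes were in the Col background, and each had 2 libraries that the series calls biological replicates. The stage field is the same for all samples, early to mid-globular with 32 to 64 cells, but the sample titles word it differently, as early globular for se-1 and by cell number for wild type. A difference in stage and the genotype cannot be told apart here. SERRATE is a zinc-finger protein of microRNA processing and mRNA splicing, and the se-1 allele keeps part of its function. Before libraries were made, all RNA was amplified with a kit that primes from the poly(A) tail.

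Replication starts at origins bound by the origin recognition complex (ORC). In G1, CDC6 and CDT1 load the ring of MCM2 to MCM7 onto these sites, and in S phase CDC45 joins the ring to form the active helicase. Polymerase alpha makes primers, polymerases delta and epsilon extend them on the sliding clamp PCNA, and replication protein A (RPA) covers exposed single strands. In plants, as in animals, E2F transcription factors bound by the retinoblastoma-related protein RBR1 hold many of these genes down outside the G1 to S transition. Globular embryos are made of dividing cells, so all of these functions are in use there.

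Promoters were searched for the E2F motif, since it is the sequence feature best known to be shared by replication genes. The window ran from 250 bases before to 50 bases after the annotated gene start in the RefSeq annotation of TAIR10.1, and the 4 spellings TTTCCCGC, TTTGGCGC, TTTGCCGC and TTTCGCGC were searched on both strands, with overlapping matches kept. Of the 40 promoters 17 (42.5%) held at least 1 match, against 483 of 27443 promoters of protein-coding genes (1.76%). TTTCCCGC was found in 13 of the 40 (32.5%, against 0.798% of coding promoters), TTTGGCGC in 5 (12.5%, against 0.434%) and TTTCGCGC in 1 (2.5%, against 0.222%), while TTTGCCGC was found in none of the 40 and in 0.35% of coding promoters. A match is a description of the letters and does not show binding.

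The following 30-base stretches show the matches of the helicase genes, of POLA1 and RBR1, which were lower in se-1, and of ORC2, which was higher. These directions are those before the correction for transcript length described below. With it POLA1 was called higher (log2 fold change 0.23) and MCM6 did not pass (0.11). Matches of the other promoters are not printed. Each is written 5′ to 3′ on the strand of its gene, with the match in capitals. Capitals that start with GCG are the motif read on the opposite strand. Coordinates are those of TAIR10.1, and the sign after them is the strand of the gene.
MCM2, chr1:16970189-16970218, +: tggcgccaataTTTCCCGCctaatcgacga
MCM3, chr5:18773858-18773887, -: ggaaatcaaacGCGCCAAAcaagcgcgtag
MCM4, chr2:7130746-7130775, -: cagtaataatgGCGCCAAAatcaagtgaag
MCM5, chr2:3527501-3527530, -: cggcccatcagTTTCCCGCcacattgttcc
MCM6, chr5:18010695-18010724, -: tatactttttaGCGGGAAAatgttagagga
POLA1, distal match, chr5:26776872-26776901, +: gcaaatggataGCGCCAAAatcgtgtcgat
POLA1, proximal match, chr5:26776891-26776920, +: atcgtgtcgatTTTCCCGCcatctccattt
RBR1, chr3:3919417-3919446, -: caaatatgtaaTTTCCCGCgtgacctaaac
ORC2, chr2:15758581-15758610, +: aagaaaaacgcGCGGGAAAattgagagact

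The motif starts lay close to the gene start in most of these promoters. With the first base of the gene as 0, they stood at -14 in MCM2, -19 in MCM5, -35 in MCM4 and -46 in MCM6. The match of MCM3 was farther away, at -170. MCM7 had no match in this window. POLA1, which encodes the catalytic subunit of polymerase alpha, had matches at -70 and -51, and RBR1 had its match at -76. In ORC2 the match began at -9, so a match of the same letters stood in promoters of genes that were lower and of a gene that was higher in se-1.

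**Figure D1:**
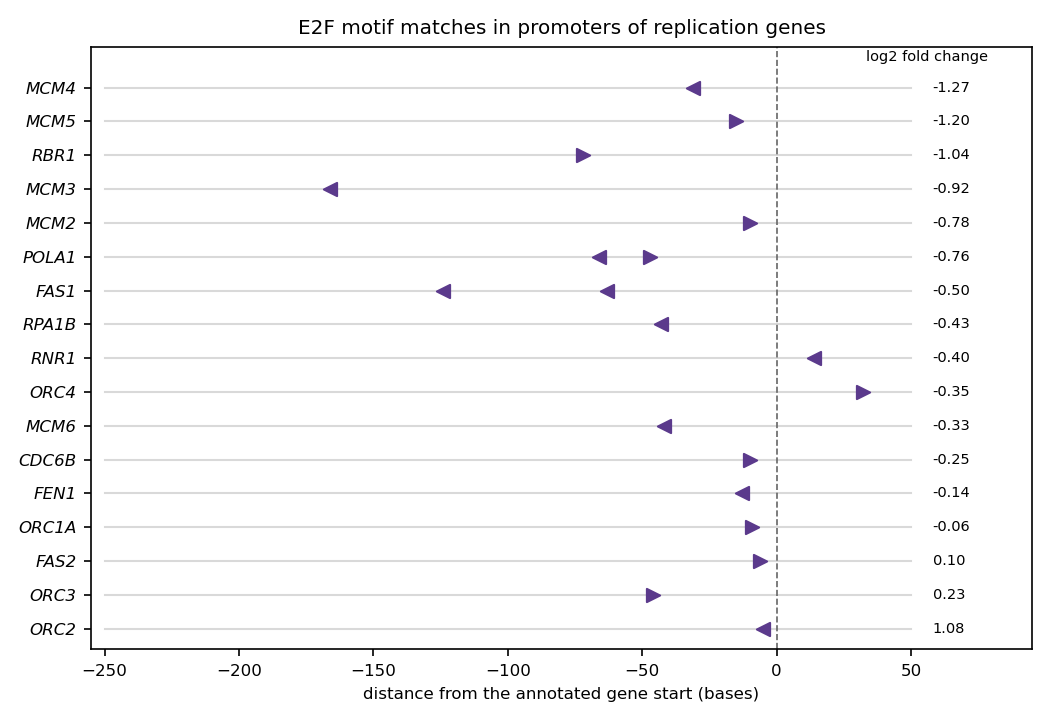
Position of E2F motif matches in the 17 promoters that held any, in bases from the annotated gene start (dashed line). Rows are ordered by log2 fold change of se-1 over wild type, without length correction, and the value is printed at the right. Triangles point right for a match on the strand of the gene and left for the opposite strand. Matches lie between -170 and 28, and the lowest rows hold ORC3 and ORC2, which were higher in se-1.

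Between 18580516 and 20882004 reads were counted per library, and the 40 genes took 0.301 to 0.434% of them. All 40 had enough counts to be tested. Levels are CPM, counts scaled by TMM to a common library total. Fold changes set se-1 over wild type and carry their standard error (SE, also written after ±). Adjusted p-values come from edgeR's quasi-likelihood test with Benjamini-Hochberg adjustment over 18714 genes, with 0.05 as the threshold. The biological coefficient of variation over genes was 0.0579, and with so small a spread modest differences passed. A single value compared by exact permutation between 2 and 2 libraries cannot reach 0.05, so shares and sums are given without a test. Genotype and any other way in which the 2 sets of embryos differed cannot be told apart.

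Markers of the tissue were present in all 4 libraries. LEC1, a regulator of embryo identity, stood at 534 and 499.7 CPM in se-1 and at 433 and 490.3 CPM in wild type. It did not pass (log2 fold change 0.16, adjusted p = 0.104), whereas other embryo markers changed by more. The 7 embryo markers summed to 929.8 to 999 CPM in se-1 and to 1117 to 1190 CPM in wild type (2 lower, 3 higher). WOX8 and ATML1 were 2.89-fold and 1.77-fold lower, and L1L, WOX2 and DRN were 2.5-fold, 2.55-fold and 3.35-fold higher. After the correction for transcript length described below, LEC1 was called lower and ATML1 did not pass (adjusted p = 0.000505 and 0.458). The 8 endosperm markers summed to 80.2 to 81.3 CPM in se-1 and 97.1 to 105 CPM in wild type. Of 6 tested, 3 were lower and 2 higher, among them FIS2 (5.93-fold lower), FWA (1.8-fold lower) and PHE1 (7.45-fold higher). IKU2 had no count in se-1 and 4 and 5 counts in wild type. The 8 seed coat markers summed to 629 to 679 CPM in se-1 and 465 to 478 CPM in wild type, with 6 higher and none lower. TT10, BAN and TT12 were 3.49-fold, 1.51-fold and 1.5-fold higher. Over all tested genes 36.0% were lower and 36.2% higher. TT4, a flavonoid enzyme gene, made up most of that sum, with 439 and 487 CPM in se-1 and 349.7 and 374 CPM in wild type. The part of these tissues in the replication results was not tested. In whole embryos, fewer cells in S phase and less RNA per cell cannot be told apart.

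Among the 40 genes, replication transcripts were lower in se-1 embryos for most of the core machinery. The 7 helicase, 4 polymerase and 4 clamp and loader genes of the set were all lower, by 1.26-fold to 2.46-fold. ORC2 and the ribonucleotide reductase gene TSO2 were 2.11-fold and 2.01-fold higher. Subunits of these complexes outside the 40 went both ways or did not pass. PSF2 of the helicase, POLD4 and the loader gene RFC2 were 4.72-fold, 2.22-fold and 1.15-fold higher, and POLD2 and POLA3 were 1.66-fold and 1.85-fold lower. With transcript length corrected, RFC2 did not pass (0.11 on the log2 scale, adjusted p = 0.251) and the other subunits named here kept their calls. After the correction for transcript length described below, 5 of the 7 helicase and 3 of the 4 clamp and loader genes were called lower. Of the 4 polymerase genes 1 was lower, and POLA1 was called higher. Over all genes 30.6% were lower and 36.2% higher after that correction. Of the 40 genes 30 passed the test in either direction, where 72.3% of all tested genes did. In se-1, 27 (67.5%) were lower, against 36.0% of all tested genes, and 3 (7.5%) were higher, against 36.2%. The other 10 did not pass. Over the 40, the median log2 fold change was -0.44, and that of all tested genes was 0. POL2A, MCM4, MCM5 and RBR1 were lower by at least 2-fold, a share of 4 in 40 where 9.90% of all tested genes were, and 15 genes were lower by at least 1.5-fold, against 22.0% of all tested genes. After length correction 5 of the 40 were lower by that much, against 17.0%. In summed level the 40 genes stood at 3052 and 3015 CPM in se-1 and at 4316 and 4217 CPM in wild type, a ratio of 0.711. Both se-1 libraries lay below both wild-type libraries in 29 genes (72.5%, against 42.8% of all tested genes) and above them in 6 (15%, against 42.7%).

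**Figure D2:**
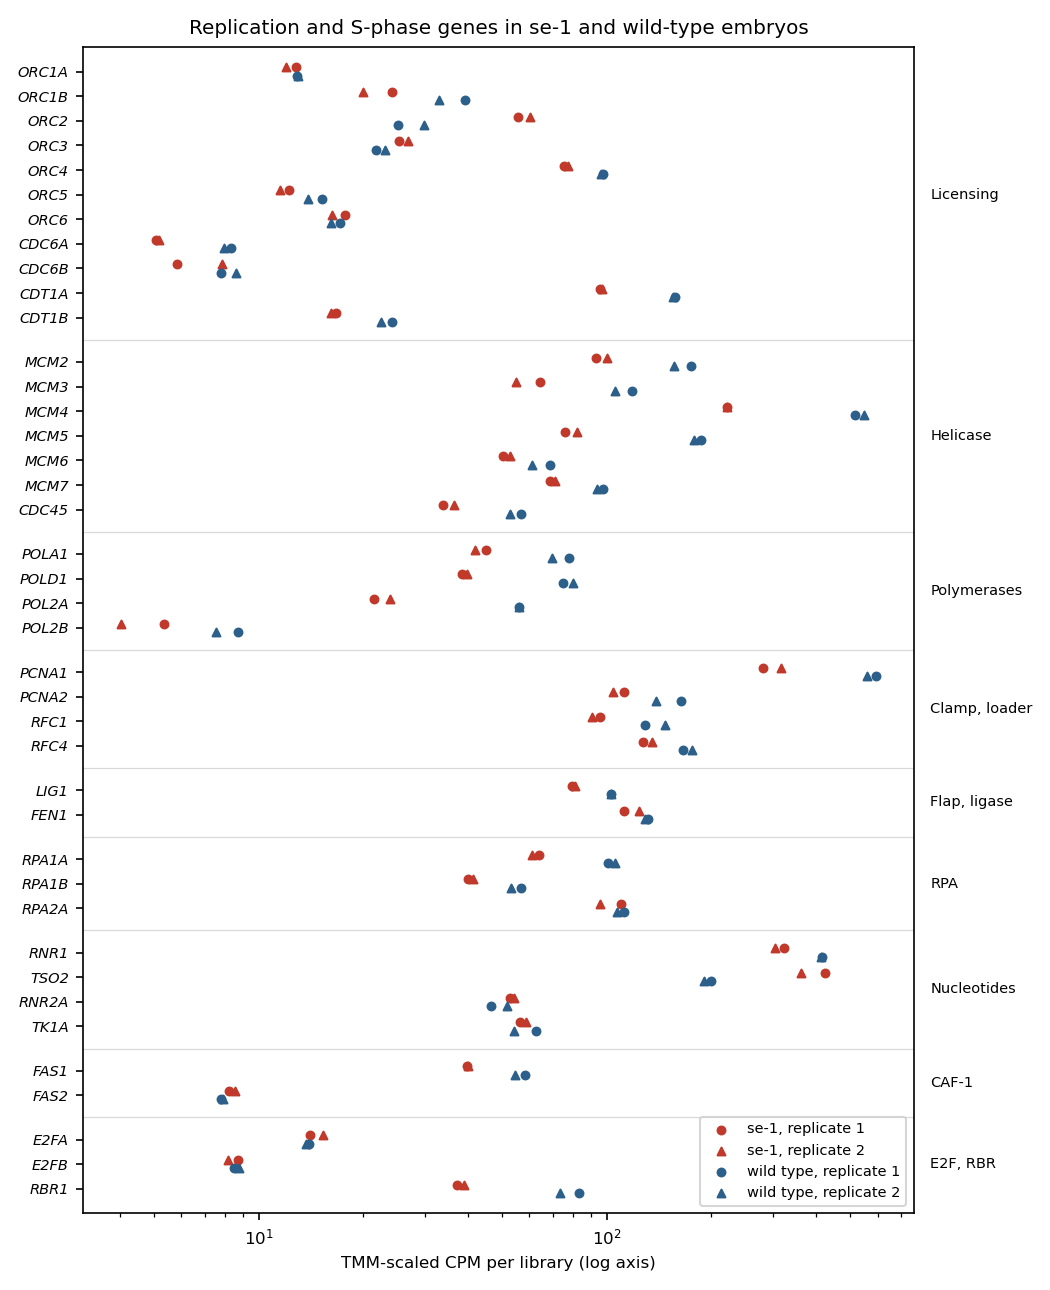
TMM-scaled CPM of each of the 40 genes in every library on a log axis, grouped by role, with se-1 in red and wild type in blue and the replicates as circles and triangles. The se-1 points lie left of both wild-type points in 29 genes, including all 7 helicase genes and all 4 polymerase genes, and right of them in 6, among them ORC2 and TSO2.

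Transcript length bears on these values. In se-1, long transcripts were lower and short ones higher across the transcriptome (Spearman's rho between length and log2 fold change -0.434 over 18495 coding genes, which are not independent replicates), and the replication genes followed the same order (rho -0.597 over 40 genes). All 8 replication genes with transcripts over 3000 nt were lower, with a median log2 fold change of -0.79, but 77% of the 2177 coding genes of that length were lower too, with a median of -0.70. Among those of 2000 to 3000 nt, 14 of 18 were lower (77.8%, against 45.4% of coding genes) with a median of -0.44 against -0.19. Up to 2000 nt, 5 of 14 were lower (35.7%, against 24.5%) and 2 were higher (14.3%, against 47.3%), with a median of -0.06 against 0.25.

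When the length trend of each library was fitted by a spline and removed, 18 of the 40 genes (45%) were lower, against 30.6% of 18529 genes, and 4 (10%) were higher, against 36.2%. Their median log2 fold change was then -0.14, and that of all genes 0.05. Correction for length and GC content together left 16 lower (40%, against 30.4%) and 5 higher (12.5%, against 36.3%). The source of the length trend was not tested, so corrected values stand beside many of the others below. Summed levels, their ratios and shares of pairs are not corrected.

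**Figure D3:**
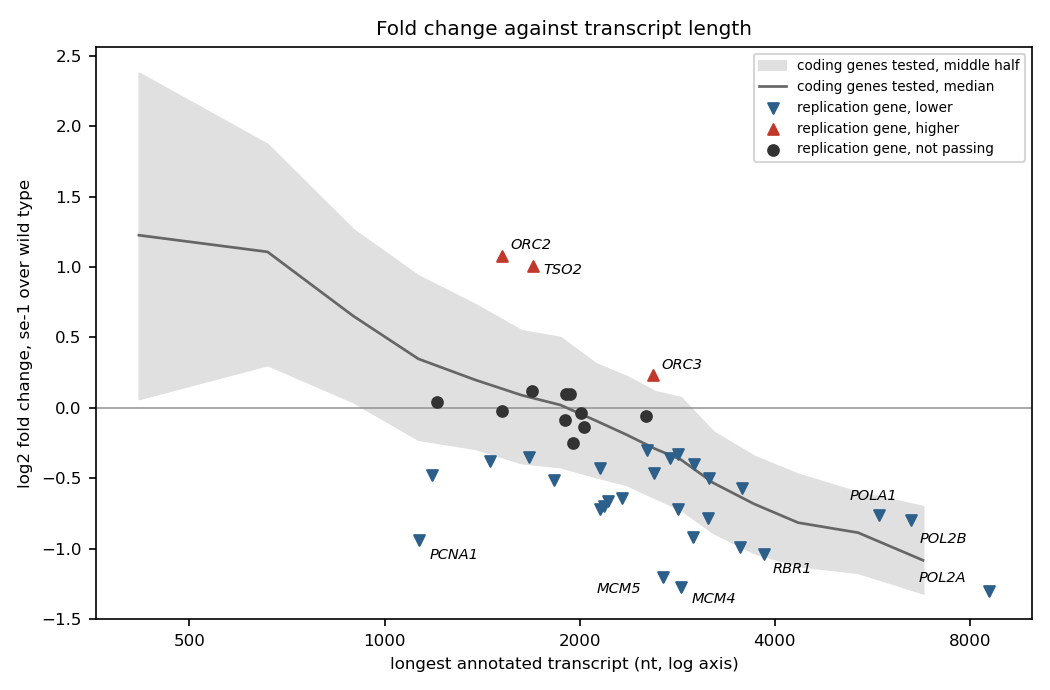
Log2 fold change of se-1 over wild type against the length of the longest annotated transcript (log axis), for the replication genes (points, by outcome of the test) and for coding genes tested (line, median in length classes; shading, the middle 50%). PCNA1, MCM4 and MCM5 lie below the shaded range and ORC2 and TSO2 above it, whereas the long polymerase genes POLA1 and POL2B lie within it.

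Origin licensing genes moved in both directions. Of the 11, 6 were lower, 2 were higher and 3 did not pass, against 36.0% lower and 36.2% higher over all tested genes. Length correction also gave 6 lower and 2 higher (30.6% and 36.2% over all genes), with ORC6 called lower in place of ORC5. Correction for length and GC content gave 4 lower and 3 higher (30.4% and 36.3% over all genes). Summed, they stood at 346 and 350.5 CPM in se-1 and at 426 and 419 CPM in wild type. The 7 ORC subunits had 3 lower and 2 higher, and their median log2 fold change was -0.06. With length and GC content corrected, 1 was lower and 3 were higher.

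ORC2 (AT2G37560), a core subunit of the origin recognition complex, had the largest upward change of the 40 genes. It stood at 55.7 and 60.3 CPM in se-1, against 25.1 and 29.9 CPM in wild type, so that the genotypes were well apart. The gene was 2.11-fold higher (log2 fold change 1.08, SE 0.096, adjusted p = 9.95e-09), and length correction left the value at 1.07. ORC3 (AT5G16690), another subunit, was at 25.4 and 26.9 CPM in se-1 and 21.7 and 23.1 CPM in wild type, a narrow gap between groups that did not overlap. Its rise was 1.17-fold (log2 fold change 0.23, SE 0.093, adjusted p = 0.0359), or 0.56 on the log2 scale after length correction (adjusted p = 2.75e-05). Without correction this call did not hold when se-1 replicate 2, wild-type replicate 1 or wild-type replicate 2 was left out (adjusted p = 0.145, 0.212 and 0.0562).

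ORC1, the subunit with the ATPase motor of the complex, is encoded by a pair of genes in Arabidopsis. ORC1B (AT4G12620) had 24.1 and 19.9 CPM in se-1 and 39.3 and 32.9 CPM in wild type. It was 1.64-fold lower (-0.72 ± 0.11 on the log2 scale, adjusted p = 9.14e-06), and after length correction -0.28 (adjusted p = 0.0232), a call that was lost with length and GC content together (-0.22, adjusted p = 0.0742). ORC1A (AT4G14700) had 12.8 and 12 CPM in se-1 and 12.9 and 13 CPM in wild type, nearly the same in all libraries. Its log2 fold change was -0.06 (SE 0.11, adjusted p = 0.609). With length correction the value was 0.23 (adjusted p = 0.0653), and with length and GC content it passed as higher, at 0.30 (adjusted p = 0.0209).

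The remaining ORC subunits changed little. ORC4 (AT2G01120) had 75.2 and 77.2 CPM in se-1 against 97.6 and 96.2 CPM in wild type and was 1.27-fold lower (adjusted p = 0.000707), with log2 fold changes of -0.35 before and -0.33 after length correction. Its exons overlap those of AT2G01130 on the opposite strand, which was also lower (log2 fold change -0.73), and without a stated strand setting the reads of such pairs cannot be told apart. ORC5 (AT4G29910) had 12.2 and 11.5 CPM in se-1 and 15.2 and 13.9 CPM in wild type and passed as 1.23-fold lower (adjusted p = 0.0208). That call was lost after length correction (log2 fold change 0.01) and without se-1 replicate 2 or wild-type replicate 1 (adjusted p = 0.117 and 0.134). ORC6 (AT1G26840), the smallest subunit, had overlapping libraries, with 17.7 and 16.3 CPM in se-1 and 17.1 and 16.1 CPM in wild type (log2 fold change 0.04, adjusted p = 0.746). After length correction it was at -0.24 (adjusted p = 0.0491).

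CDT1 and CDC6 load the MCM ring. CDT1A (AT2G31270) stood at 95.4 and 97.1 CPM in se-1 and at 157 and 155 CPM in wild type. The groups were far apart, and the gene was 1.62-fold lower (-0.70 ± 0.078 on the log2 scale, adjusted p = 2.44e-07; -0.58 after length correction, adjusted p = 2.17e-06). CDT1B (AT3G54710) was 1.42-fold lower, with corrected and uncorrected log2 fold changes of -0.49 and -0.51. CDC6A (AT2G29680), whose level per length was above only that of POL2B, was 1.58-fold lower (log2 fold change -0.66, adjusted p = 0.000319; -0.53 after length correction, adjusted p = 0.00227). CDC6B (AT1G07270) had 5.83 and 7.86 CPM in se-1 and 7.8 and 8.63 CPM in wild type, with overlapping libraries (log2 fold change -0.25, SE 0.15, adjusted p = 0.133). It passed as lower only without se-1 replicate 2 (log2 fold change -0.49, adjusted p = 0.0254).

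All 7 helicase genes were lower in se-1, where 36.0% of all tested genes were. Summed, they had 608 and 618 CPM in se-1 and 1221 and 1199 CPM in wild type, a ratio of 0.507. Their median log2 fold change was -0.78, or -0.43 after length correction. With that correction 5 of the 7 were called lower (71.4%, against 30.6% of all genes).

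MCM4 (AT2G16440) was the most abundant of the helicase transcripts per length in every library. It stood at 222 and 221 CPM in se-1 and at 518 and 550.1 CPM in wild type, with close replicates in both genotypes. The log2 fold change was -1.27 (SE 0.082, adjusted p = 1.37e-10), or -0.83 with length corrected (adjusted p = 2.57e-08). MCM5 (AT2G07690) fell in like measure, to 75.9 and 82.2 CPM in se-1, against 186 and 178 CPM in wild type. Its log2 fold change was -1.2 (SE 0.082, adjusted p = 2.76e-10), or -0.83 with length corrected (adjusted p = 2.34e-08). MCM3 (AT5G46280) was 1.89-fold lower and MCM2 (AT1G44900) 1.72-fold lower, with length-corrected log2 fold changes of -0.43 and -0.23 (adjusted p = 0.000325 and 0.0212).

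MCM6 and MCM7 fell least of the 7. MCM6 (AT5G44635) had 50.4 and 52.7 CPM in se-1 and 68.6 and 61 CPM in wild type and was 1.26-fold lower (-0.33 ± 0.086 on the log2 scale, adjusted p = 0.00224). The sign turned after length correction, to 0.11 (adjusted p = 0.276), and without wild-type replicate 1 the uncorrected call was lost (adjusted p = 0.0572). MCM7 (AT4G02060) had 68.6 and 70.9 CPM in se-1 and 97.8 and 93.8 CPM in wild type. It was 1.37-fold lower (-0.46 ± 0.080 on the log2 scale, adjusted p = 5e-05), but did not pass after length correction (-0.12, adjusted p = 0.189). AT4G02050, which overlaps MCM7 on the opposite strand, went the other way (log2 fold change 0.28). CDC45 (AT3G25100), the factor that activates the MCM ring, was 1.56-fold lower (log2 fold change -0.64, adjusted p = 2.55e-06; -0.45 after length correction, adjusted p = 0.000122).

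The MCM ring contains each of its subunits once, whereas the transcripts were unequal. Per kilobase of transcript, the ratio of the most to the least abundant of the 6 was 4.36 and 4.2 in the se-1 libraries and 7.48 and 8.94 in the wild-type libraries. MCM4 was at the top in all 4, at 77.2 CPM per kilobase on average in se-1 and 186 in wild type. At the bottom was MCM6, except in se-1 replicate 2, where MCM3 was lowest. The spread was thus narrower in both se-1 libraries, a description with no test.

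All 4 catalytic polymerase genes were lower, where 36.0% of all tested genes and 77% of coding genes over 3000 nt were. For all but POLD1 the call depended on transcript length. In sum they had 110.3 and 109 CPM in se-1 and 217 and 213 CPM in wild type, a ratio of 0.51. POLD1 (AT5G63960), the catalytic subunit of the lagging-strand polymerase delta, had 38.3 and 39.6 CPM in se-1 and 74.9 and 80.1 CPM in wild type. It was 1.99-fold lower (-0.99 ± 0.084 on the log2 scale, adjusted p = 5.29e-09), or -0.34 with length corrected (adjusted p = 0.00163).

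Polymerase epsilon copies the leading strand, and its catalytic subunit is encoded by POL2A and POL2B. Before length correction POL2A (AT1G08260) had the largest fall of the 40 genes, with 21.5 and 23.9 CPM in se-1 and 56 CPM in both wild-type libraries. The log2 fold change was -1.30 (SE 0.089, adjusted p = 2.92e-10). At 8576 nt its transcript is also the longest of the set, and after length correction the value was -0.16 and did not pass (adjusted p = 0.112). Among coding genes over 5000 nt, 89.6% of the 278 tested were lower, with a median of -0.99 on the log2 scale. AT1G08270 overlaps POL2A on the opposite strand and was lower as well (log2 fold change -0.64).

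POL2B (AT2G27120) was the least abundant of the 40 genes per length. It had 5.35 and 4.03 CPM in se-1 and 8.74 and 7.53 CPM in wild type, all low but not overlapping. Its log2 fold change was -0.80 (SE 0.16, adjusted p = 0.000185), and 0.24 after length correction (adjusted p = 0.193). POLA1 (AT5G67100) had 45.1 and 41.9 CPM in se-1 and 77.9 and 69.5 CPM in wild type. It was lower without correction (log2 fold change -0.76, SE 0.088, adjusted p = 3.21e-07) and higher with it (0.23, adjusted p = 0.024). Its transcript has 5783 nt.

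**Figure D4:**
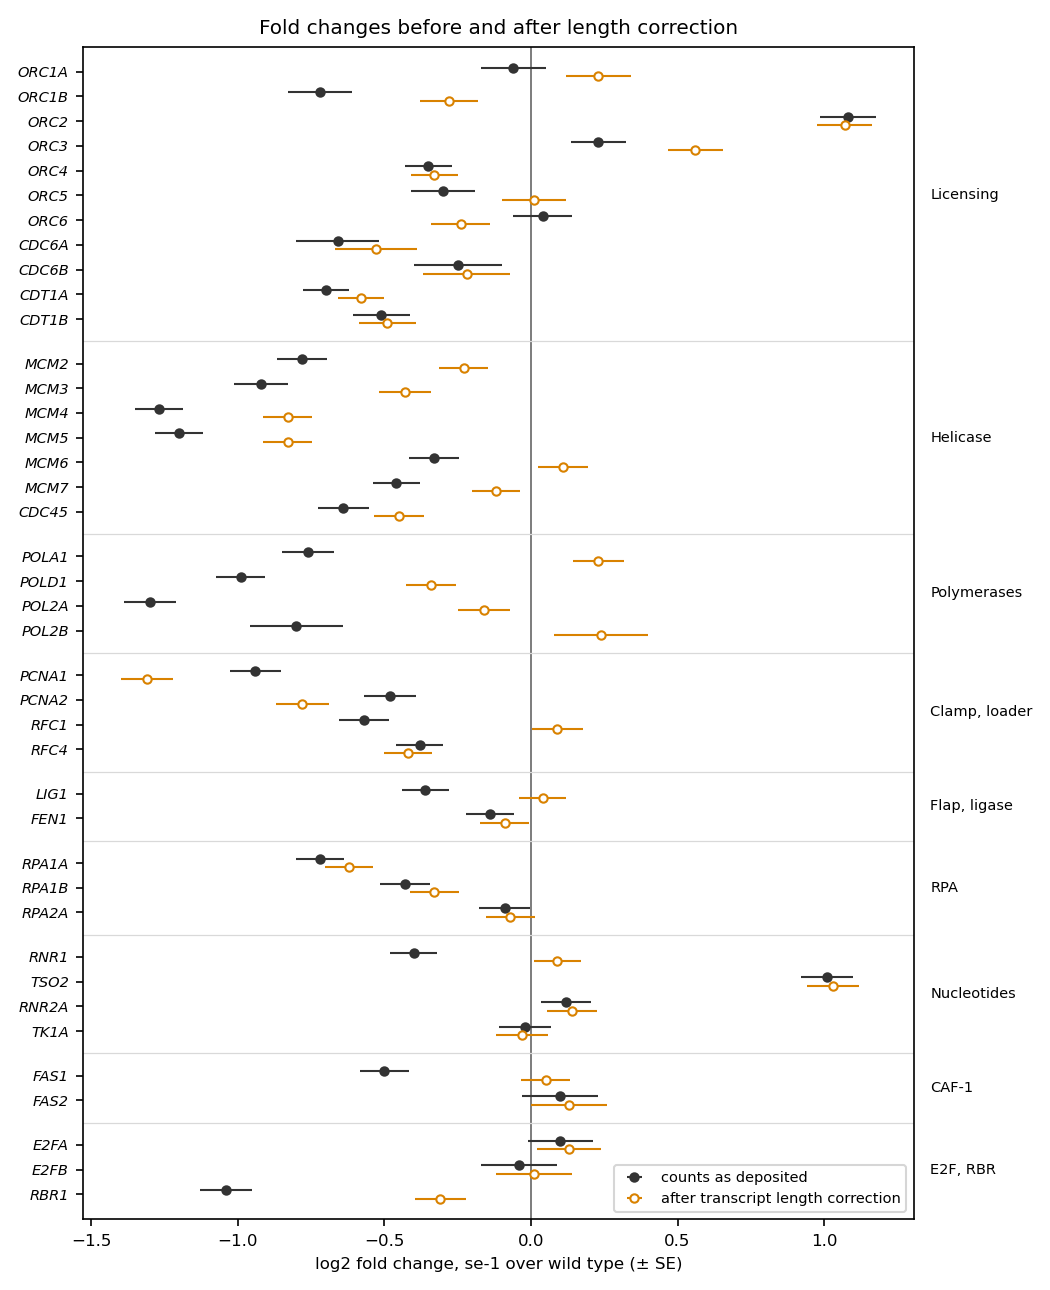
Log2 fold change of se-1 over wild type for the 40 genes, with bars of 1 SE, before correction (filled) and after transcript length correction (open), grouped by role. The open points of the long polymerase genes lie between -0.34 and 0.24, those of MCM4 and MCM5 at -0.83, and that of PCNA1 at -1.31, lower than before.

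Both PCNA genes were lower in se-1, and by more after length correction. PCNA1 (AT1G07370), the sliding clamp and the most abundant of the 40 genes per length in both genotypes, had 282 and 317 CPM in se-1 and 593 and 558 CPM in wild type. The genotypes were separated by far more than their replicates, and the gene was 1.92-fold lower (-0.94 ± 0.087 on the log2 scale, adjusted p = 1.71e-08). Its transcript of 1130 nt is the shortest of the set, and the corrected log2 fold change was -1.31 (adjusted p = 6.72e-11). PCNA2 (AT2G29570) had 112 and 104 CPM in se-1 and 163 and 139 CPM in wild type. It was 1.4-fold lower (-0.48 on the log2 scale, adjusted p = 8.52e-05; -0.78 corrected, adjusted p = 2.04e-07). PCNA1 and PCNA2 are close copies, so reads may be split between them, but their sum was 394 and 421 CPM in se-1 and 756 and 696 CPM in wild type, 1.78-fold lower. PCNA2 overlaps AT2G29560 on the opposite strand, which was lower by 1.11 on the log2 scale.

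The clamp is opened by replication factor C. RFC4 (AT1G21690), a small subunit, was 1.3-fold lower, with log2 fold changes of -0.38 before and -0.42 after length correction (adjusted p = 0.000333 and 0.000129). RFC1 (AT5G22010), the large subunit, had 95.4 and 90.5 CPM in se-1 and 129 and 147 CPM in wild type. It was 1.48-fold lower (-0.57 ± 0.086 on the log2 scale, adjusted p = 8.8e-06). After length correction it was at 0.09 (adjusted p = 0.372).

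Of the enzymes that trim and join lagging-strand fragments, 1 was lower and 1 did not pass, where 36.0% of all tested genes were lower. LIG1 (AT1G08130), the replicative DNA ligase, had 79.7 and 80.9 CPM in se-1 and 103 CPM in both wild-type libraries. It was 1.28-fold lower (-0.36 ± 0.079 on the log2 scale, adjusted p = 0.000454), and 0.04 after length correction (adjusted p = 0.674). FEN1 (AT5G26680), the flap endonuclease, had 112 and 124 CPM in se-1 and 131 and 129 CPM in wild type (log2 fold change -0.14, SE 0.081, adjusted p = 0.127). It did not pass, except without se-1 replicate 2 (adjusted p = 0.0499).

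RPA is a trimer. Of its 3 genes in the set, 2 large subunit genes were lower (66.7%, against 36.0% of all tested genes) and a middle subunit gene did not pass. RPA1A (AT2G06510), a large subunit, had 64.1 and 61.1 CPM in se-1 and 101 and 106 CPM in wild type. It was 1.65-fold lower (-0.72 ± 0.081 on the log2 scale, adjusted p = 2.24e-07), or -0.62 with length corrected (adjusted p = 1.27e-06). RPA1B (AT5G08020), a second large subunit, was 1.35-fold lower (log2 fold change -0.43; -0.33 corrected, adjusted p = 0.00195). RPA2A (AT2G24490), the middle subunit, had overlapping libraries, at 110.1 and 95.8 CPM in se-1 and 112 and 107 CPM in wild type (log2 fold change -0.09, SE 0.086, adjusted p = 0.35).

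Of the 4 genes of nucleotide supply, 1 was lower, 1 was higher and 2 did not pass (25% lower and 25% higher, against 36.0% and 36.2% of all tested genes). After length correction 1 was higher (25%, against 36.2% of all genes) and 3 did not pass. Their summed level was 857 and 778 CPM in se-1 and 725 and 710.3 CPM in wild type, a ratio of 1.14. That ratio rests on TSO2, since the other 3 summed to 433 and 417 CPM in se-1 and to 526 and 519.9 CPM in wild type, a ratio of 0.813. Ribonucleotide reductase, which makes deoxyribonucleotides, consists of large subunits (RNR1) and small subunits (TSO2, RNR2A). TSO2 (AT3G27060) had 424 and 361 CPM in se-1 and 199.6 and 190.4 CPM in wild type. Both se-1 values were far above both wild-type values, and the gene was 2.01-fold higher (log2 fold change 1.01, SE 0.089, adjusted p = 9.84e-09; 1.03 after length correction). It ranked second per length among the 40 genes in se-1, at 232 CPM per kilobase, and below PCNA1, MCM4, RNR1, PCNA2 and RFC4 in wild type, at 115. A gene on the same strand that overlaps it, AT3G27050, was also higher (9.26 CPM in se-1 against 3.99 CPM in wild type).

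RNR1 (AT2G21790) had 324 and 304 CPM in se-1 and 416 and 414 CPM in wild type. It was 1.32-fold lower (-0.40 ± 0.081 on the log2 scale, adjusted p = 0.000212). With length corrected it was at 0.09 (adjusted p = 0.33). RNR2A (AT3G23580) had 52.7 and 54.2 CPM in se-1 and 46.6 and 51.8 CPM in wild type (log2 fold change 0.12, adjusted p = 0.214). TK1A (AT3G07800), a thymidine kinase of the salvage pathway, had overlapping libraries at 56.3 and 58.7 CPM in se-1 and 62.8 and 54 CPM in wild type (log2 fold change -0.02, adjusted p = 0.832).

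FAS1 and FAS2 are subunits of chromatin assembly factor 1, which places histones behind the fork. FAS1 (AT1G65470) had 39.8 and 39.9 CPM in se-1 and 58.2 and 54.6 CPM in wild type. It was 1.41-fold lower (-0.50 ± 0.084 on the log2 scale, adjusted p = 3.06e-05), but 0.05 after length correction (adjusted p = 0.596). FAS2 (AT5G64630) had 8.24 and 8.58 CPM in se-1 and 7.8 and 7.9 CPM in wild type and did not pass (log2 fold change 0.10, adjusted p = 0.484).

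Among the regulators, RBR1 was lower and the E2F genes did not pass. RBR1 (AT3G12280), the retinoblastoma-related repressor, had 37.1 and 38.9 CPM in se-1 and 83.1 and 73.2 CPM in wild type. The genotypes were widely separated, with a 2.05-fold lower level (log2 fold change -1.04, SE 0.089, adjusted p = 5.76e-09), or -0.31 with length corrected (adjusted p = 0.00369). AT3G12270, on the opposite strand of RBR1, had a log2 fold change of 0.12. E2FA (AT2G36010), an activator of S-phase genes, had 14.1 and 15.3 CPM in se-1 and 14 and 13.7 CPM in wild type (log2 fold change 0.10, SE 0.11, adjusted p = 0.428). E2FB (AT5G22220), another activator, had 8.73 and 8.15 CPM in se-1 and 8.53 and 8.79 CPM in wild type, overlapping (log2 fold change -0.04, SE 0.13, adjusted p = 0.786).

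The outcome was also counted by E2F match. Over all tested genes 36.0% were lower and 36.2% higher (30.6% and 36.2% after length correction). Of the 17 with a match 11 were lower (64.7%) and 2 higher (11.8%), with a median log2 fold change of -0.40. After length correction 7 were lower and 3 higher, with a median of -0.09. Of the 23 without, 16 were lower (69.6%) and 1 higher (4.35%), with a median of -0.48. After length correction 11 were lower and 1 higher, with a median of -0.16. Among 342 other tested genes with a match 132 (38.6%) were lower and 105 (30.7%) higher, with a median of -0.05. After length correction 29.5% of these were lower and 29.5% higher, with a median of 0. These counts are descriptions and the difference between the groups was not tested.

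Within 8 pairs of related genes, the share of the first gene lay on the same side of wild type in both se-1 libraries in 7 pairs and overlapped for E2FA and E2FB. For single genes, both se-1 libraries lay below both wild-type libraries in 42.8% of all tested genes and above them in 42.7%. Separated libraries were thus common, and the count of pairs is not read as a result. The pair shares are descriptions with no test. Replicates of a genotype could differ by more than counting error, as the se-1 shares of PCNA1 did. TSO2 took 88.9 and 86.9% of the counts of TSO2 and RNR2A in se-1 and 81.1 and 78.6% in wild type. PCNA1 took 71.6 and 75.3% of the PCNA counts in se-1 and 78.5 and 80.1% in wild type. In both pairs no exact 95% interval (Clopper-Pearson, counting error only) of a se-1 library met that of a wild-type library. ORC1A took 34.6 and 37.5% of the ORC1 counts in se-1 and 24.6 and 28.3% in wild type, and here the intervals of se-1 replicate 1 (31.1 to 38.3%) and wild-type replicate 2 (25.4 to 31.4%) met narrowly. RPA1A was at a smaller share in se-1, at 61.5 and 59.6% against 64 and 66.6% in wild type, with intervals that met as well. CDT1A held 85.1 and 85.7% in se-1 and 86.6 and 87.3% in wild type, and POL2A 80.1 and 85.6% in se-1 and 86.5 and 88.1% in wild type. E2FA was at 61.8 and 65.3% in se-1 and 62.1 and 60.8% in wild type, and CDC6A, at 46.6 and 39.7% in se-1 and 51.6 and 47.9% in wild type, had wide intervals.

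**Figure D5:**
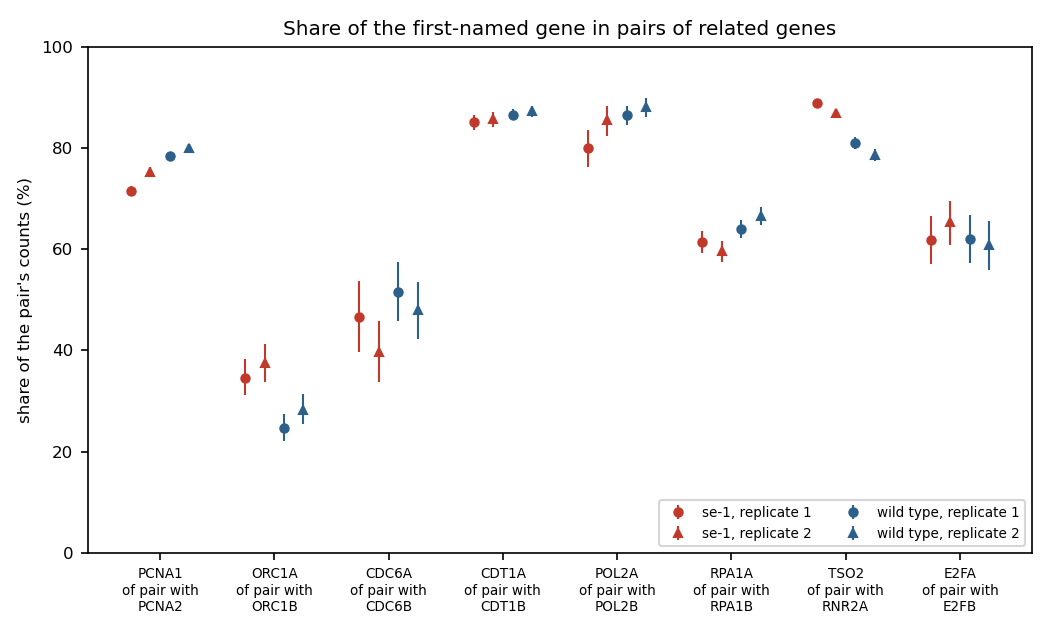
Share of the counts of 8 pairs of related genes taken by the first-named gene, in percent, for each library, with exact 95% intervals that cover counting error only. The shares of TSO2 and ORC1A lie higher in both se-1 libraries than in both wild-type libraries, and that of PCNA1 lies lower.

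Other genes of the replication machinery, a list of 42 that shares no gene with the 40, were split between the directions. Of the 41 tested, 15 were lower (36.6%, against 36.0% of all tested genes) and 16 higher (39%, against 36.2%), with a median log2 fold change of 0.12. After length correction 14 were lower and 13 higher (34.1% and 31.7%, against 30.6% and 36.2% of all genes). RNR2B was not analysed here. Of the 41 promoters searched 10 (24.4%) held an E2F match.

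The 3 of these with the smallest adjusted p went in different directions. PSF2 (AT3G12530), a subunit of the GINS complex that joins CDC45 and the MCM ring in the helicase, had 28.8 and 31.1 CPM in se-1 and 6.11 and 6.59 CPM in wild type. It was 4.72-fold higher (log2 fold change 2.24, SE 0.11, adjusted p = 3.81e-12; 2.13 after length correction). TOPII (AT3G23890), a topoisomerase that untangles replicated DNA, had 175 and 183 CPM in se-1 and 435 and 439.7 CPM in wild type. It was 2.44-fold lower (log2 fold change -1.29, adjusted p = 9.56e-11), or -0.38 with length corrected (adjusted p = 0.000393). RPA3B (AT4G18590), a small RPA subunit, had 83.8 and 96.2 CPM in se-1 and 32.9 and 36.3 CPM in wild type, 2.6-fold higher (log2 fold change 1.38, adjusted p = 2.28e-10; 0.66 corrected, adjusted p = 1.85e-06).

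Further examples, chosen after their values were seen, came from partners of the 40 genes. ASF1B (AT5G38110), a histone chaperone that hands histones to chromatin assembly factor 1, was 2.36-fold lower, with 12.6 and 13.7 CPM in se-1 against 33.4 and 28.8 CPM in wild type. Length correction put it at -1.5 on the log2 scale (adjusted p = 1.28e-10). RPA1D (AT5G61000), a further large RPA subunit, was 2.25-fold lower, and RPA1C (AT5G45400) was 1.98-fold lower. With length corrected they were at -0.99 and -0.38 on the log2 scale. The large subunit gene RPA1E (AT4G19130) was 1.2-fold higher (0.69 on the log2 scale with length corrected, adjusted p = 4.47e-07). POLD4 (AT1G09815), a small subunit of polymerase delta, was 2.22-fold higher at 85.4 and 92.5 CPM in se-1 and 40.4 and 39.7 CPM in wild type. Its transcript has 726 nt, and the log2 fold change of 1.15 was 0.37 after length correction (adjusted p = 0.000687) and did not pass with GC content corrected too (0.18, adjusted p = 0.0761). POLD2 (AT2G42120), another subunit of that polymerase, was 1.66-fold lower, or -0.71 on the log2 scale with length corrected. DPA (AT5G02470) and DPB (AT5G03415), partners with which E2F proteins bind DNA, were 1.71-fold and 1.5-fold higher, and E2FC (AT1G47870), an E2F that acts as a repressor, was 1.56-fold higher.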

How the data were processed

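The authors deposited raw counts, as whole numbers of reads per gene, in 1 table for each of the 4 libraries. Per the submitters' processing notes, TAIR10 was the build, and the tools named are featureCounts, Cufflinks 2.2.1, HISAT2 2.0.5 and FastQC 0.11.5. Strand setting, annotation release and the handling of reads with several positions were not given in the sources used here, so overlapping genes and close copies are uncertain. Total counts were 18580516 and 20882004 in se-1 and 18894161 and 19362653 in wild type. Between replicates, chi-square over degrees of freedom was 5.87 in se-1 and 4.1 in wild type (genes with at least 10 counts), which is above sampling noise.

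Genes were filtered with filterByExpr, scaled by TMM and tested with edgeR 4.0.16 (R 4.3.3) in a quasi-likelihood F-test of genotype, two-sided, with Benjamini-Hochberg adjustment over all 18714 genes. The SE is the log2 fold change divided by the square root of F. For length correction, a spline with 5 degrees of freedom of log2 ratio against log2 length of the longest TAIR10.1 transcript was fitted per library and used as an offset, which left out 185 genes. DESeq2 1.42.0 and limma 3.58.1 served as alternatives, with other filters, scalings and fits, 16 in all. On simulated data the test called 58% of 1.5-fold and 90% of 2-fold changes, and 0.0495% of unchanged genes. Few genes were changed in that simulation, whereas 72.3% of tested genes were called here. It therefore does not check the test or the scaling under these conditions. Sequences were read from the RefSeq genome TAIR10.1. The count tables hold no coordinates.

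Replication genes and lists were chosen with earlier results of these data known. Any of the 40 genes could be named. Values of every library are given for the gene of each role with the smallest adjusted p or the highest level. They are also given for those that did not pass, went against the majority or changed call or direction with length. The 3 genes with the smallest adjusted p of the other replication list and of the DNA damage list have such values too. For the marker lists only fold changes of those 3 are given. LEC1, WOX2, DRN, IKU2 and TT4 were not chosen by this rule.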

Additional observations from a re-analysis of the deposited data

How the results depend on the processing

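The count of replication genes called lower stayed between 25 and 28 when each library was left out in turn, and that called higher between 2 and 3 (27 to 30 in all). Scaling by DESeq2 size factors or library size, limma-voom, no filter, a filter of 1 CPM and nuclear genes alone each gave 27 lower and 3 higher, and the DESeq2 test gave 26 and 2, without ORC3 (adjusted p = 0.147) and ORC5 (adjusted p = 0.119). A test against a minimum change of 1.5-fold called 12 of the 40, 10 of them lower. Of all genes it called 15.2% lower and 18.2% higher. It called 15 of the other replication genes (9 lower, 6 higher), and 5 of the DNA damage genes, 1 of them higher. With length and GC content corrected, 16 of the 40 were lower and 5 higher. Leaving out a library gave 27 to 30 other replication genes (14 to 15 lower, 13 to 16 higher) and 8 to 9 DNA damage genes (5 lower throughout, 3 to 4 higher).

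Replicate numbers are shared by the genotypes. Over genes, the deviations of se-1 replicate 1 and wild-type replicate 1 from their genotype means had a correlation of 0.0263, so no pairing was shown. With 2 libraries per genotype the deviations of replicate 2 mirror those of replicate 1 and add nothing. A fit with the replicate number as a block called 27 lower and 3 higher, 30 in all, and 33 other replication genes (16 lower, 17 higher) and 9 DNA damage genes (5 lower, 4 higher).

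Directions turned for single genes after correction for length, for length with GC content, and for length with the replicate block. The log2 fold changes, in that order, were 0.01, 0.06 and 0.01 for ORC5, 0.11, 0.16 and 0.11 for MCM6, 0.23, 0.24 and 0.23 for POLA1, 0.24, 0.25 and 0.24 for POL2B, 0.09, 0.03 and 0.09 for RFC1, 0.04, 0.03 and 0.04 for LIG1, 0.09, 0.13 and 0.09 for RNR1, and 0.05, 0.11 and 0.05 for FAS1. ORC6 was at -0.24 with length and with length and block, and ORC1A at 0.30 with length and GC content. The cause was not tested. Low counts limit CDC6A, CDC6B, POL2B, FAS2 and E2FB, whose SE of the log2 fold change was 0.13 to 0.16.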

Other observations

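Genes of the DNA damage response, the checkpoint that watches stalled forks, went both ways. Of 12 listed genes 11 were tested, and 5 were lower and 4 higher in se-1 (45.5% and 36.4%, against 36.0% and 36.2% of all tested genes), with a median log2 fold change of -0.19. ATR (AT5G40820), the kinase activated by exposed single strands at stalled forks, had 7.28 and 7.24 CPM in se-1 and 24.9 and 27.2 CPM in wild type. It was 3.59-fold lower (-1.84 ± 0.11 on the log2 scale, adjusted p = 4.55e-11, edgeR), and -0.68 after length correction (adjusted p = 2.33e-05). ATM (AT3G48190), the kinase activated by broken DNA, had 18.2 and 16.9 CPM in se-1 and 40.6 and 42.3 CPM in wild type, 2.37-fold lower (adjusted p = 8.85e-10). Its transcript has 9734 nt, and after length correction the log2 fold change was -0.07 (adjusted p = 0.51). BRCA1 (AT4G21070), a repair gene, had 16.2 and 14.3 CPM in se-1 and 35.1 and 34.5 CPM in wild type, 2.29-fold lower (adjusted p = 2.89e-09; log2 fold change -0.65 after length correction, adjusted p = 5.29e-06).

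XRI1 (AT5G48720), a gene induced by X-rays, was named after its values were seen. It had 33 and 28.9 CPM in se-1 and 19.2 and 16.4 CPM in wild type and was 1.74-fold higher, with a length-corrected log2 fold change of 0.79 (adjusted p = 1.05e-06, edgeR). After length correction the list had 4 lower and 4 higher genes (36.4% each, against 30.6% and 36.2% of all genes).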
